A study of Mus musculus with 2 samples.

Results

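T cells of the mouse lower incisor were selected from a droplet single-cell RNA sequencing matrix by the UMIs (unique molecular identifiers, counts of captured transcripts) of Cd3d, Cd3e and Cd3g. A barcode was counted when it had at least 500 detected genes, at most 20% mitochondrial UMIs and at most 5% Hba- and Hbb- UMIs. It also needed at least 2 UMIs over the 3 Cd3 genes, no Cd79a UMI, at most 2 UMIs of C1qa, C1qb and C1qc together, and at most 1 UMI of Epcam and Cdh1 together. These conditions gave 126 of 4543 kept barcodes, which is 2.77% (exact 95% Clopper-Pearson interval 2.32 to 3.29%). The genes of the rule chose the members, so their levels are given as a description only.

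The animals were C57BL/6 mice of 4 weeks that received no treatment. Pulp with dental epithelium was taken from the lower incisor and dissociated with collagenase before 10x Genomics 3′ v3 capture, although the tissue label names dental mesenchyme only. The 2 sample titles differ only in the lane and the barcodes carry none, so all values come from 1 pooled sample. With 1 sample no test was made. Every interval covers counting error only, and the number of animals is not given.

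T cells recognise antigen through a surface receptor made of an alpha and a beta chain or a gamma and a delta chain. The receptor chains have no signalling part of their own and depend on the CD3 gamma, delta and epsilon chains and on CD247 (CD3 zeta) to pass the signal into the cell. CD4 and CD8 are coreceptors that bind class II and class I MHC molecules, and gamma-delta T cells often carry neither and settle in barrier tissues such as gingiva and skin.

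Cd3g, Cd3d and Cd3e lie side by side on chromosome 9 (GRCm38, GENCODE M21). Cd3g runs from 44969572 to 44980431 on the minus strand, and Cd3d from 44981786 to 44987339 on the plus strand, with 1355 bases between their starts. Cd3e runs from 44998740 to 45009627 on the minus strand and overlaps the gene models Gm48719 and Gm48720. The 250 bases before each start, from RefSeq on GRCm38.p6, are shown 5′ to 3′ on the gene's strand because the 3 genes chose the members and because Cd3d was detected without the other 2 in part of the barcodes. Capitals mark matches on either strand to AGATAA, the motif of the family of Gata3, or to AGGAAG, the motif of the family of Ets1, which reads CTTCCT on the other strand. The windows are chr9:44980432-44980681 (minus strand) for Cd3g, chr9:44981536-44981785 (plus) for Cd3d and chr9:45009612-45009861 (minus) for Cd3e. The RefSeq start of Cd3e lies inside the GENCODE gene, which reaches 45009627, so the Cd3e window includes bases of that gene model. The Cd3g and Cd3d windows adjoin their GENCODE genes.
Cd3g: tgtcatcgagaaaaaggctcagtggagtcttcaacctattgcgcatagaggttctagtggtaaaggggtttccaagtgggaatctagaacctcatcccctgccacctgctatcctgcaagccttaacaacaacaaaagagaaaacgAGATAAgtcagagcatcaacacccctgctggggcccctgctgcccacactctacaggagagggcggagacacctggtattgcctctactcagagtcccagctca
Cd3d: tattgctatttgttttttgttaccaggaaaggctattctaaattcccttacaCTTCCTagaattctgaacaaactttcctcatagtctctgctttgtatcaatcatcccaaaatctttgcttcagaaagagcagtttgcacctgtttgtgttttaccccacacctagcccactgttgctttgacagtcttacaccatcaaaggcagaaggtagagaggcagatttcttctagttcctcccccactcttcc
Cd3e: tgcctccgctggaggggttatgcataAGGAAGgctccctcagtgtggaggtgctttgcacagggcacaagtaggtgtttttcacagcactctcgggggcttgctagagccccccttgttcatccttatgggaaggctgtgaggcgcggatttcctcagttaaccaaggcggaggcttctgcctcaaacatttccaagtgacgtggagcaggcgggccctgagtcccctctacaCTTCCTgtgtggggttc
The Cd3g window held 1 AGATAA match, the Cd3d window 1 AGGAAG match and the Cd3e window 2. No window held TGTGGT (RUNX) or TTGCNNAA (CEBP). Over 32851 promoter windows of the same length the shares with a match were 9.99% for AGATAA, 29.5% for AGGAAG, 14.0% for TGTGGT and 9.56% for TTGCNNAA. In the windows shown, no match overlapped another. A match is a string of letters and not a measured binding site.

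The label of T cells held for 84 of the 126 barcodes and went against the data in 42. The 42 barcodes had between 93 and 4760 UMIs of S100a8 and S100a9 (median 1285.5), which encode the calprotectin subunits of neutrophils, and these 2 genes made up 31.3% of all their UMIs. The other 84 had between 0 and 2. No barcode of the rule lay between these groups, so the split at 10 UMIs, which was chosen after the values were seen, cut no continuous range. Among all kept barcodes 3711 had no S100a8 or S100a9 UMI, 611 had 1 to 10, 17 had more than 10 and fewer than 50, and 204 had at least 50.

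**Figure D1:**
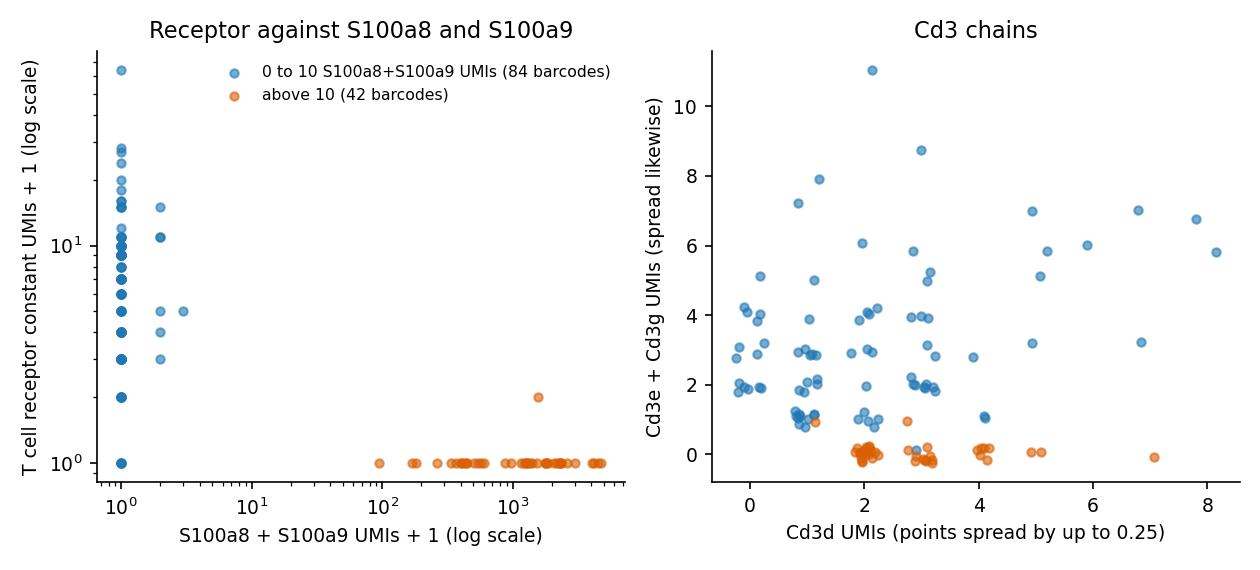
Each point is 1 of the 126 barcodes. Left, UMIs of T cell receptor constant genes plus 1 against S100a8 and S100a9 UMIs plus 1 (both log axes). Right, Cd3e and Cd3g UMIs against Cd3d UMIs. The 42 barcodes above 10 S100a8 and S100a9 UMIs lie at the right edge of the left panel with almost no receptor UMIs, and along the bottom of the right panel with Cd3d and no Cd3e, and 2 of them have 1 Cd3g UMI.

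In the 42 barcodes the Cd3 signal was Cd3d, apart from 2 UMIs of Cd3g. Every one of the 42 had Cd3d, with 117 UMIs and 577 CPM (counts scaled to the group's UMI total as CPM, interval 477 to 692). Cd3e was at 0 of 42 barcodes, which allows a UMI in up to 7.14% of barcodes (3 counts of 42) and 14.8 CPM. Trac, Trbc2, Cd247, Cd4, Cd8a and Cd8b1 were at 0, and Trbc1 had 1 UMI. Ptprc (CD45, on all leukocytes) was present with 57 UMIs in 26 of the 42.

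The 42 barcodes were led by neutrophil genes. Against the 84, 229 of 1431 measured genes were at least 2-fold higher (16.0%) and 692 lower (48.4%), with a median log2 ratio of -0.92. Among the lower ones were 6 of 7 receptor complex genes and 10 of 11 signalling genes. Without S100a8 and S100a9, which chose the groups, 4 of 4 measured neutrophil markers were higher. S100a8 stood at 157742 CPM by the choice of the group, and the secondary granule genes Ngp and Camp at 39888 and 38961 CPM in 33 and 30 of 42 barcodes. Retnlg and Ltf (lactotransferrin) followed with 38 and 24 barcodes, whereas the primary granule genes Elane and Mpo were at 0. The 6 neutrophil markers other than S100a8 and S100a9 together gave 95831 CPM in the 42 barcodes, with 2 to 2331 UMIs a barcode (median 278.5), against 8.94 CPM (2 UMIs) in the 84. All 8 markers gave 408862 CPM in the 42, most of it from the 2 genes that chose them. CPM is a share of all UMIs, so such a share lowers the CPM of other genes in the 42. Its part in the count of lower genes was not tested. Scrublet, a doublet caller, scored 2 of the 42 and 1 of the 84 above 0.15, beside 97 of all kept barcodes.

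Cd3d also appeared in S100a8 and S100a9-rich barcodes that the rule did not select. Of all 204 kept barcodes with at least 50 S100a8 and S100a9 UMIs, a set chosen without any Cd3 gene, 85 had a Cd3d UMI (41.7%, interval 34.8 to 48.8%), whereas 0 had Cd3e and 2 had Cd3g. Outside the rule, 43 of the 162 S100a8 and S100a9-rich barcodes had exactly 1 Cd3d UMI (26.5%, 19.9 to 34.0%, median depth 2630 UMIs). Also outside the rule, 15 of the 4255 kept barcodes with fewer S100a8 and S100a9 UMIs had Cd3d (0.353%, median depth 6060 UMIs). After each barcode was thinned to 1000 UMIs, Cd3d was found in 7.41% of the 162 (3.89 to 12.6%). In the barcodes that the rule chose through Cd3, the thinned shares were 60.7% of the 84 and 52.4% of the 42.

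**Figure D2:**
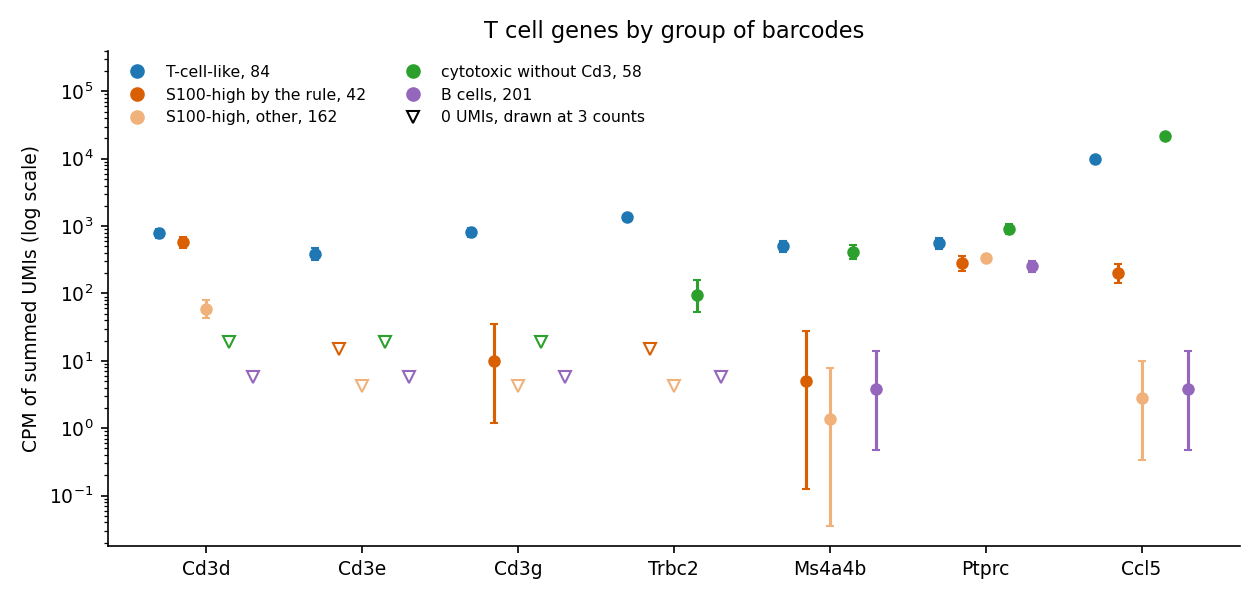
CPM of summed UMIs (log axis) of 7 genes in the 84 T-cell-like barcodes, the 42 and 162 barcodes rich in S100a8 and S100a9, 58 cytotoxic barcodes without Cd3 and 201 B cell barcodes. Bars are 95% Poisson intervals and open triangles mark 0 UMIs, drawn at 3 counts. Cd3d is at 786 CPM in the 84 and 577 CPM in the 42, while Cd3e and Trbc2 are at 0 in the 42. The 58 and the 201 were chosen without a Cd3 UMI.

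At the threshold, 16 of the 84 had a Cd3 sum of exactly 2, and 14 of these 16 had a receptor constant UMI. Just outside, 16 barcodes with few S100a8 and S100a9 UMIs had a Cd3 sum of 1, and 7 of them had a receptor UMI. Among the S100a8 and S100a9-rich barcodes the receptor was at 0 on both sides, in 22 inside and 44 outside. At a Cd3 sum of 3 or more a receptor UMI was found in 66 of 68 barcodes with few S100a8 and S100a9 UMIs and in 1 of 20 with many.

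Taken as the rule gives them, the 126 barcodes had 426557 UMIs and a median of 2527.5 UMIs (1087 to 15286) and 910.5 genes. Of 14014 genes with at least 30 UMIs over both sides, 1535 were at least 2-fold higher than in all other kept barcodes (11.0%) and 4207 at least 2-fold lower (30.0%). Their leading genes outside the lists included the neutrophil genes Lcn2, Wfdc21, Pglyrp1 and Ifitm6, and 6 of 8 neutrophil markers were higher. The receptor complex was 8 of 8 higher (median log2 ratio 8.19, all genes -0.25), of which Cd3d, Cd3e and Cd3g were fixed by the rule. Its signalling genes were 13 of 13 higher (median 5.63). Without the 42, the direction turned for neutrophil and myeloid genes that the split did not use: on the log2 scale, Camp went from 5.66 to at most -4.77 (0 UMIs in the 84) and Lyz2 (lysozyme) from 3.09 to -4.18. The sections that follow therefore describe the 84.

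The 84 T-cell-like barcodes were 1.85% of the kept barcodes (interval 1.48 to 2.28%), with 223814 UMIs, a median of 2247.5 UMIs (1087 to 9227) and 887 genes. They were shallower than the 4417 kept barcodes outside the rule (median 5933 UMIs) and had a higher median mitochondrial share (10.8% against 7.19%). The part of depth and mitochondrial share in the ratios was not tested. A receptor constant UMI was found in 80 of the 84. It was also found in 43 of the 58 cytotoxic barcodes without Cd3 described below, so it is not particular to the 84. B cell barcodes had one in 2 of 201 and macrophage barcodes in 6 of 507. Against the 4417, 1864 of 14001 genes were at least 2-fold higher (13.3%) and 2698 lower (19.3%), with a median log2 ratio of 0. For 4433 of these genes the 84 had no UMI, so their ratio is a bound against 3 counts. Below, a number given beside a gene with no other unit is its log2 ratio of CPM in the comparison described, with its interval where the gene is central.

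**Figure D3:**
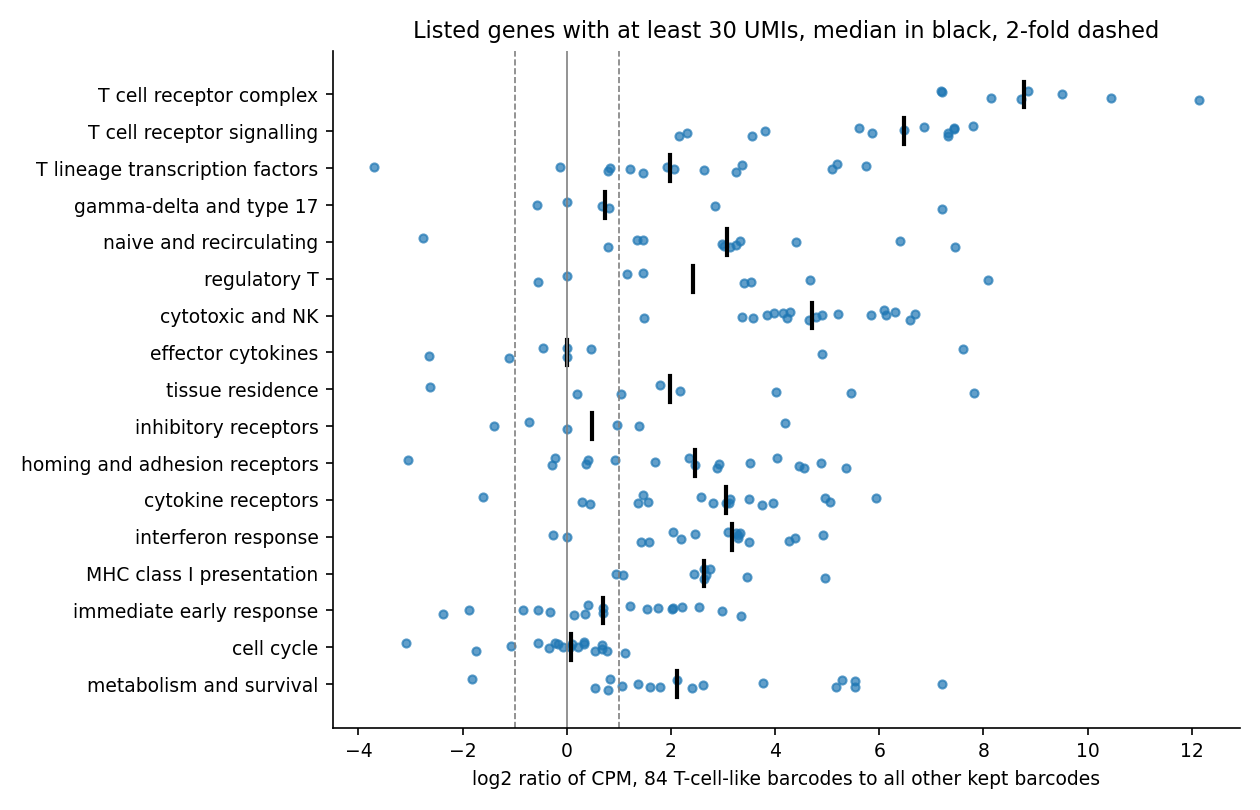
Log2 ratio of CPM in the 84 T-cell-like barcodes to that in the 4417 kept barcodes outside the rule, 1 point for each listed gene with at least 30 UMIs over both sides. The black bar is the list's median and dashed lines mark 2-fold. The receptor complex (median 8.79) and signalling genes (6.47) lie far to the right, and cell cycle genes (0.08) lie around 0. In the receptor complex Cd3d, Cd3e and Cd3g were fixed by the rule.

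The receptor complex was present as a whole. All 8 measured members were higher than in the other kept barcodes (median log2 ratio 8.79), of which the 3 Cd3 genes were fixed by the rule. Cd3d had 176 UMIs in 69 barcodes (786 CPM), Cd3g 180 in 73 (804 CPM) and Cd3e 87 in 54 (389 CPM), with at most 8, 8 and 5 UMIs a barcode and medians of 2, 2 and 1. Cd247, the zeta chain, had 34 UMIs in 27 barcodes (log2 ratio 7.19, interval 6.47 to 7.91). Trac, the alpha chain constant gene, had 93 UMIs in 44 barcodes (8.72, interval 8.14 to 9.34). Trbc2, a beta chain constant gene, had 302 UMIs in 63 barcodes and up to 37 in 1 barcode (9.51, interval 9.12 to 9.92). Trbc1 and Trbc2 are near-identical copies, and Tcrg-C1 and Tcrg-C2 are highly similar, so the split of reads within each pair is uncertain.

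All 13 measured genes of receptor signalling were higher (median 6.47). Lck, the kinase that phosphorylates the CD3 chains, was at 232 against 2.00 CPM (log2 6.86, interval 6.32 to 7.40). Lat, the membrane scaffold downstream of the receptor, reached 7.81. Cd28, the costimulatory receptor, had 57 UMIs in 32 barcodes (7.43, interval 6.86 to 8.01). Fyn and Ptprc, which other cell types also express, were higher by less (2.30 and 3.55). Ms4a4b, a tetraspan membrane protein of T and NK cells, had 113 UMIs in 44 barcodes (505 CPM, 7.46, interval 7.06 to 7.87).

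Of 14 transcription factors of the T lineage, 10 were higher and 1 lower (median 1.99). Ikzf3 (Aiolos) and Gata3 were among the highest at 5.75 and 5.18, the latter with 12 UMIs in 12 barcodes. Ets1 was found in 62 of the 84 (5.10). Tcf7, Lef1 and Bcl11b, factors of T cell identity, were higher by 1.46, 3.25 and 2.63, and other kept barcodes held 63.2 CPM of Tcf7. Id3, an inhibitor of E proteins, was the member that was lower (-3.69, interval -4.60 to -2.92). Of 8 thymocyte genes 2 were higher, and the precursor genes Rag1 and Ptcra were at 0 in the 84.

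Genes of naive and recirculating T cells were mostly higher, 10 of 12, with 1 lower (median 3.08). Il7r, the interleukin 7 receptor that sustains resting T cells, had 91 UMIs in 40 barcodes (6.40, interval 6.02 to 6.78), and Ccr7, the receptor for lymph node entry, 43 in 20 (4.39). Klf2 and S1pr1, a factor and its exit receptor, were at 2.98 and 3.33. Igfbp4 was lower (-2.75).

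The cytotoxic list was higher in all 18 measured genes (median 4.72). Ccl5, a chemokine stored by memory T cells, had 2247 UMIs in 37 barcodes, up to 228 in 1 barcode, with a median of 0 over the 84 (10040 against 147 CPM, log2 6.10, interval 6.02 to 6.17). Nkg7, a granule protein, was found in 39 barcodes (5.83, interval 5.56 to 6.10). Gzma (granzyme A) had 206 UMIs in 13 barcodes, of which 3 barcodes held 68.0%, so its ratio of 4.29 rests on few barcodes. Gzmk had 20 UMIs in 10 barcodes and 0 in the other kept barcodes. This is under the minimum of 30 UMIs over both sides, so Gzmk is not among the 18 measured genes. Prf1 (perforin) had 5 UMIs and Ncr1, an NK receptor, 1.

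Effector cytokines were not raised as a list, with 2 of 8 higher and 2 lower (median 0.00). Ifng (interferon gamma) had 33 UMIs in 15 barcodes (7.62, interval 6.83 to 8.42), and 13 of these 15 also had Nkg7. Ltb (lymphotoxin beta) had 58 UMIs in 35 barcodes (4.91). Ccl3 and Tnf were lower (-2.64 and -1.11). Il2, Il5, Il13, Il21, Il22 and Csf2 were at 0. Tnfsf11 (RANKL, the ligand that drives osteoclast formation) had 13 UMIs in 9 barcodes, and Cd40lg, the helper ligand, 8 UMIs in 7 barcodes and 0 elsewhere among the kept barcodes.

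Cytokine receptors were higher in 14 of 17 and lower in 1 (median 3.06). Il2rb, shared by the interleukin 2 and 15 receptors, was at 6.31, Il18r1 at 5.93 and Il21r at 5.05. Homing and adhesion receptors were higher in 11 of 17 and lower in 1 (median 2.46). Selplg, the selectin ligand, was found in 45 barcodes (4.03), and Cxcr4 in 31 (2.89), whereas Cx3cr1 was lower (-3.04). For tissue residence the count was 6 of 8 higher and 1 lower (median 1.98), led by Cxcr6 with 38 UMIs in 17 barcodes (7.82) and Cd69 with 37 in 21 (5.45). Itgae (CD103) had 2 UMIs in 1 barcode. Against the 58 cytotoxic barcodes without Cd3 described below, cytokine receptors were higher in 2 of 6 and lower in 1. Homing and adhesion receptors were higher there in 1 of 10 and lower in 0. Against B cell barcodes the counts were 4 of 7 and 6 of 10 higher, with 1 lower in each list.

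Genes of the interferon response were higher in 14 of 16 (median 3.17) and of class I MHC presentation in 8 of 9 (median 2.64). H2-K1 was found in 80 of the 84 (3.47, interval 3.32 to 3.61) and B2m in 82 (2.64), and Nlrc5, which activates class I genes, reached 4.95. Ifi27l2a had 346 UMIs in 44 barcodes (3.28), with 121 in 1 barcode and 59.5% in 3. Of 17 metabolism and survival genes 13 were higher and 1 lower (median 2.11), among them Gimap3 at 7.21. Against the 58 cytotoxic barcodes without Cd3 described below, 1 of 5 interferon, 1 of 6 class I and 3 of 13 metabolism genes were higher and 0 lower. Against B cell barcodes the counts were 1 of 6, 2 of 7 and 7 of 13 higher, with 1 metabolism gene lower.

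The 19 immediate early genes were split, with 9 higher and 2 lower (median 0.69). Junb was in 78 of the 84 (2.20) and Tnfaip3, an inhibitor of NF-kappa-B, at 3.34, whereas Jun and Atf3 were lower (-1.87 and -2.38). Such genes respond to tissue dissociation as well as to receptor signals, and the part of either was not tested. Cell cycle genes lay near the other kept barcodes, with 1 of 18 higher and 3 lower (median 0.08). Mki67 had 11 UMIs in 3 barcodes. With at least 3 of 8 cycling genes, a count chosen after the values were seen, 5 of the 84 were cycling (5.95%, interval 1.96 to 13.3%), and their median depth was 7086 UMIs against 2150 in the rest of the 84.

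Outside the lists, the genes with the highest ratio to other kept barcodes were Hcst (DAP10, the adaptor of NKG2D), Vps37b, H2-Q7, Gm8369, Gramd3, Gimap1, Ptprcap, AW112010, Nr4a3 and Zc3hav1. Hcst had 179 UMIs in 78.6% of the barcodes (800 against 17.1 CPM), and Vps37b 252 UMIs in 84.5% (1126 against 33.9 CPM). Ptprcap, the CD45-associated protein, was in 47.6% (295 against 11.0 CPM), and Nr4a3, an early response receptor, in 56.0% (393 against 21.8 CPM).

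The receptor chains detected were mostly alpha-beta. A UMI of Trac, Trbc1 or Trbc2 without a gamma or delta constant UMI was found in 66 of the 84 (78.6%, interval 68.3 to 86.8%). Both kinds of chain were found in 12 (14.3%, 7.61 to 23.6%), gamma or delta alone in 2 and neither in 4. Over all 126 barcodes of the rule the counts were 67, 12, 2 and 45. Trdc, the delta constant gene, had 20 UMIs in 9 barcodes, Tcrg-C1 had 21 in 9, Tcrg-C2 had 8 in 7 and Tcrg-C4 had 5 in 3.

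Cd8a or Cd8b1 was detected in 30 of the 84 (35.7%, interval 25.6 to 46.9%), Cd4 in 7 (8.33%, 3.42 to 16.4%), both in 0 (which allows up to 3.57%, 3 counts of 84) and neither in 47. Cd8a had 38 UMIs in 20 barcodes and Cd8b1 75 in 24, and all 3 coreceptor genes were higher than in the other kept barcodes. Neither Cd8 gene was found in 507 macrophage barcodes or 201 B cell barcodes. After thinning, Cd8b1 remained in 22.6% and Cd8a in 13.1% of the 84.

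Cd4 was seldom seen in the 84, with 1 UMI in 6 of its 7 barcodes. Macrophage barcodes had a Cd4 UMI in 23.3% of barcodes at a median of 4719 UMIs, above the 8.33% of the 84 at 2247.5 UMIs. After thinning to 1000 UMIs the shares were 8.33% (6.07 to 11.1%) in macrophages and 3.57% (0.743 to 10.1%) in the 84. The intervals overlap, and since Cd4 in the 84 was not above that of a cell type outside the T lineage, it is not read as a share of CD4 T cells. B cell barcodes had 0 of 201. All 7 barcodes with Cd4 had alpha-beta chains only.

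All 14 barcodes with a gamma or delta UMI lacked both Cd4 and Cd8, and 12 of them also had an alpha or beta constant UMI. They are called gamma-delta barcodes below for the detected UMI only. Of the 66 with alpha-beta chains only, 28 had Cd8, 7 had Cd4 and 31 had neither. The 84 thus fell into 30 barcodes with Cd8 (median 2610.5 UMIs), 14 with a gamma or delta UMI (2319.5 UMIs) and 40 remaining (2041 UMIs), which included the 7 with Cd4. Detection at this depth is incomplete, so a barcode without a coreceptor UMI is not shown to lack the coreceptor.

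**Figure D4:**
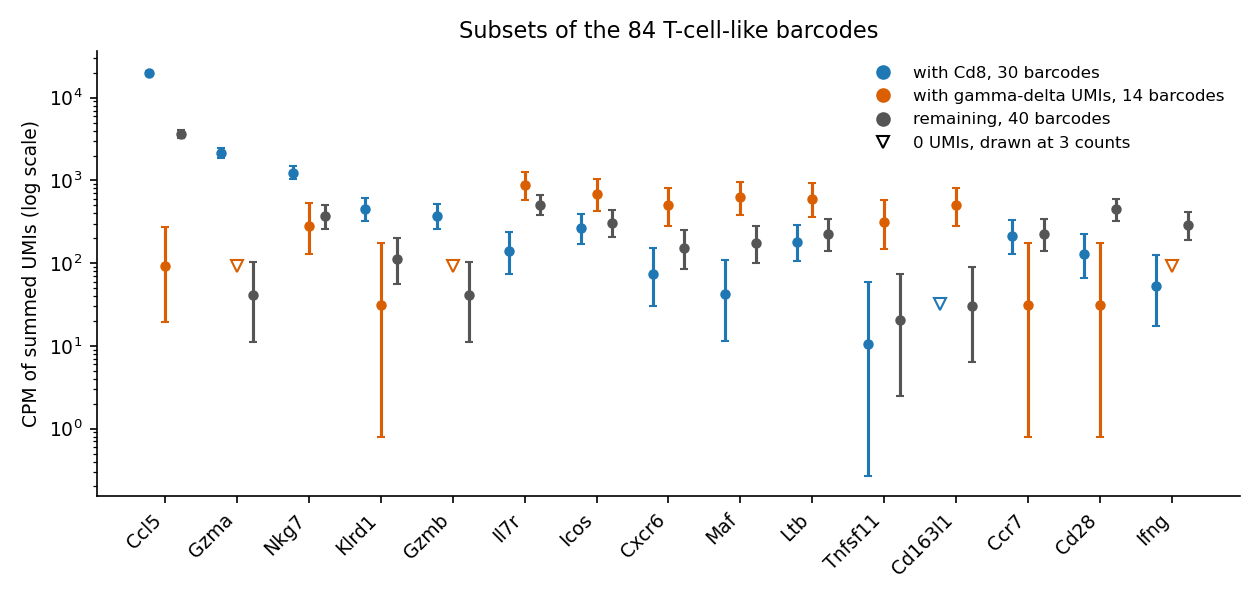
CPM of summed UMIs (log axis) of 15 genes in the 30 barcodes with Cd8, the 14 with a gamma or delta UMI and the 40 remaining. Bars are 95% Poisson intervals and open triangles mark 0 UMIs, drawn at 3 counts. Ccl5 has 1886 UMIs in the Cd8 set and 3 in the gamma-delta set, whereas Tnfsf11 has 10 of its 13 UMIs in the gamma-delta set.

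The Cd8 barcodes held most cytotoxic transcripts. Against the other 54 of the 84, 218 of 2729 genes with at least 10 UMIs were at least 2-fold higher (7.99%) and 375 lower (13.7%, median log2 ratio -0.11), and the cytotoxic list was 8 of 11 higher (median 1.85). Ccl5 had 1886 UMIs in 24 of the 30, against 361 in 13 of the 54 (2.86, interval 2.69 to 3.02). Gzma had 202 UMIs in 11 barcodes of the Cd8 set and 4 elsewhere (6.13, interval 4.75 to 8.02), and every barcode with Gzma also had Ccl5. Gzmk, a granzyme of memory cells, had 18 and 2 UMIs (3.64, interval 1.58 to 6.79), Nkg7 117 and 45 (1.85, interval 1.34 to 2.38), and Klrd1 (CD94) 42 and 12 (2.28).

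The integrin genes Itgb1, Itgb2 and Itga4 were also higher in the Cd8 barcodes (1.60, 1.61 and 1.20), as were Ly6c2, a memory marker (1.67), and Lck (1.15). Il7r was lower, with 13 UMIs against 78 (-2.11, interval -3.09 to -1.26), and so were Tcf7 (-1.48), Cd28 (-1.44), Cxcr6 (-1.68), Maf (-2.74) and Ifng with 5 against 28 UMIs (-2.02, interval -3.74 to -0.62). By barcode, Ifng was in 4 of the 30 with Cd8 and 11 of the other 54. The 3 barcodes richest in Ifng held 42.4% of its UMIs, so its ratio rests on few barcodes. Immediate early genes were higher in 1 of 18 and lower in 6. Cd74 and class II genes were not read as higher, since 1 barcode of 6206 UMIs held 185 Cd74, 69 H2-Aa and 46 H2-Ab1 UMIs beside 12 Cd3 UMIs.

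The Cd8 barcodes had a higher median mitochondrial share (12.7%) than the gamma-delta (10.2%) and remaining barcodes (9.16%). With a limit of 10% only 34 of the 84 were left, 6 of them with Cd8, and the Ccl5 ratio was then 0.80, under 2-fold. Gzma at 4.22, Nkg7 at 1.32 and Il7r at -2.21 still passed 2-fold in the same direction. Cxcr6 (-0.79) and Tcf7 (-0.70) did not. The part of the mitochondrial share in these ratios was not tested.

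The 14 barcodes with a gamma or delta UMI were set apart by Cd163l1 and Tnfsf11. Against the other 70, 423 of 2729 genes were at least 2-fold higher (15.5%) and 329 lower (12.1%, median 0.00), in 32054 UMIs. Alpha-beta constant genes were not absent: Trac and Trbc2 were lower (-1.56 and -1.24), and Trbc1 was within 2-fold (-0.08). Trdc was detected in 9 of the 14. Cd163l1 (SCART1, a scavenger receptor of gamma-delta T cells) had 16 UMIs in 6 of the 14 and 3 UMIs in 2 others (5.00, interval 3.19 to 7.42). Tnfsf11 had 10 UMIs in 6 of the 14, 1 in the Cd8 set and 2 in the remaining set (4.32, interval 2.36 to 6.82), and 5 barcodes had both genes. Maf, a factor of interleukin 17-producing cells, was higher with 20 UMIs against 21 in the other 70 (2.51, interval 1.55 to 3.47). Cxcr6 (2.12), Ikzf3 (2.71), Pdcd1 (PD-1, 2.58), Ltb (1.54), Icos (1.26) and Junb (1.66) were higher as well. Il7r was at 1.41, and at 0.75 without the barcode with the most Il7r UMIs.

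Part of the cytotoxic and naive genes was lower in the gamma-delta barcodes. Ccl5 had 3 UMIs in 1 barcode (-6.97, interval -9.24 to -5.42), and Gzma and Gzmb had 0, with bounds of -3.52 and -1.12. Gzmk and Ifng also had 0, but at this depth their bounds of -0.16 and -0.88 did not reach 2-fold. The other 70 included the 30 Cd8 barcodes. Gzma was in 11 barcodes with Cd8 and 2 without, Gzmb in 9 and 2, and Gzmk in 8 and 2. Few granzyme UMIs are thus not particular to the gamma-delta barcodes. In these 14 the cytotoxic list was 0 of 11 higher and 5 lower, and the naive list 6 of 11 lower and 1, Il7r, higher. Ccr7 (-2.81), Klf2 (-2.37), Cd28 (-3.23), Ms4a4b (-2.62), Lck (-2.06), Cd2 (-2.88) and Ifi27l2a (-3.84) were lower. A Cd3 sum of at least 3 left 9 of the 14, with no UMI of Ccr7, Cd28 or Klrd1, and the bounds of -0.21, -0.83 and -0.80 from 3 counts then did not reach 2-fold.

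Type 17 genes themselves were near the limit of detection. Il17a had 2 UMIs in 2 of the 84 and Il23r 5 in 4, and of 6 measured genes of the gamma-delta and type 17 list 2 were higher than in the other kept barcodes (median 0.74). Regulatory T cell genes were as sparse at their core: Foxp3 had 3 UMIs in 2 barcodes, Il2ra 3 in 2 and Ctla4 12 in 5, and both Foxp3 barcodes had Ctla4. The wider regulatory list was 6 of 8 higher (median 2.43), through Icos (8.08) and Ikzf2 (3.54), which other T cells also express. Of 6 inhibitory receptors 2 were higher and 1 lower. Pdcd1 had 18 UMIs in 10 barcodes, 9 of the UMIs in the gamma-delta set.

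The 40 remaining barcodes carried most Ifng and Cd28. Ifng had 28 of its 33 UMIs there in 11 barcodes, Cd28 44 of 57 and Ctla4 all 12. Il7r was in 25 of the 40, with 50 UMIs. Ccr7 was split between the Cd8 and remaining sets, with 20 and 22 UMIs and 1 in the gamma-delta set. Ifi27l2a had 242 of 346 UMIs in the remaining set and Hspa1a, a heat shock gene that responds to dissociation, 94 of 135. Of the 346 Ifi27l2a UMIs, 1 barcode of the 84 held 121 and 3 held 59.5%. The remaining set had 97938 of the 223814 UMIs of the 84.

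The 84 were also set beside cytotoxic lymphocytes without Cd3, which share granule genes with T cells but were chosen to lack Cd3d, Cd3e and Cd3g. The 58 barcodes compared had NK receptor UMIs, no Cd3 and fewer than 5 Cd74 UMIs, and a median of 2048 UMIs. The deepest of the 58 held 24587 of their 158535 UMIs, so it weighs more than the others in the summed CPM. Of 1581 genes 111 were at least 2-fold higher in the 84 (7.02%) and 118 lower (7.46%, median -0.03). Trac (3.23, interval 2.13 to 4.59), Trbc2 (3.83, interval 3.09 to 4.69), Cd28 (3.34, interval 1.90 to 5.26), Il7r (3.01, interval 1.97 to 4.26), Icos (4.18, interval 2.58 to 6.49) and Bcl11b (2.31) were higher in the 84, and Ccr7 by at least 3.34 with 43 UMIs against 0. Trbc1 differed less (1.21, interval 0.76 to 1.67) and had a UMI in 31 of the 58. Ms4a4b was shared, with a UMI in 37 of the 58.

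Klrd1, Klre1, Ncr1 and Klrb1c chose the 58 and are lower in the 84 by that choice. Without these 4, 7 of 11 measured cytotoxic genes were lower in the 84 and 0 higher (median -1.22). Gzma had 206 UMIs against 1179 (-3.01, interval -3.23 to -2.80) and Prf1 5 against 45 (-3.67). Nkg7 and Ccl5 were also lower (-1.22 and -1.09), as was Tbx21, the factor T-bet (-2.82). Cd69 (3.13), Cxcr6 (2.75), Ltb (2.55) and Ifi27l2a (5.62) were higher, the last with 59.5% of its UMIs in 3 of the 84. With all 126 and all 94 cytotoxic barcodes, 229 of 2709 genes were higher (8.45%) and 447 lower (16.5%).

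Against 201 B cell barcodes (at least 2 Cd79a UMIs, median 1736 UMIs), 317 of 3069 genes were higher in the 84 (10.3%) and 536 lower (17.5%, median -0.14). The receptor complex was 7 of 7 higher, but the B cell barcodes were chosen without a Cd3 UMI. Its members Cd3d, Cd3e and Cd3g were thus fixed by the choice of both groups. Receptor signalling was higher in 10 of 12, with 1 lower. Cytotoxic genes were higher in 8 of 8 (median 5.98), and Ccl5 had 2 UMIs in the B cell barcodes (11.35, interval 9.49 to 14.39). Icos, Nkg7, Ifng and Cxcr6 were at 0 in B cells, which puts the log2 ratios at no less than 5.89, 6.97, 4.67 and 4.88. Cell cycle genes were lower in 9 of 16 and higher in 0 (median -1.02), with Mki67 at -1.72, interval -2.78 to -0.81. Cycling barcodes were 14.4% of the B cell barcodes and 5.95% of the 84, at median depths of 1736 and 2247.5 UMIs. Rag1, the recombinase of developing lymphocytes, had 110 UMIs in B cell barcodes and 0 in the 84, and immediate early genes were higher in 11 of 18 and lower in 2. With all 126, 427 of 3534 genes were higher (12.1%) and 899 lower (25.4%).

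Mesenchyme and epithelium markers and most neutrophil and macrophage markers were lower in the 84 than in the other kept barcodes, whereas erythroid and type 2 innate lymphoid markers were not. The 8 mesenchyme markers gave 98 UMIs in 24 barcodes (438 CPM, against 8753 in the other kept barcodes and 4520 in droplets of 1 to 20 UMIs that stand for free RNA), with 6 of 8 detected. The epithelial markers gave 177 UMIs (791 CPM, against 56470 and 16837). B cell markers gave 23 UMIs in 13 barcodes, of which Ighm had 20. Dendritic cell markers gave 313 UMIs, 309 of them in the barcode with 185 Cd74 UMIs. Macrophage and monocyte markers gave 469 CPM, against 15626 CPM in the 42 barcodes rich in S100a8 and S100a9. Against the other kept barcodes, 8 of 8 mesenchyme, 7 of 7 epithelium and 6 of 8 neutrophil markers were at least 2-fold lower. So were 8 of 10 macrophage and monocyte and 4 of 9 B cell markers. Of the 6 neutrophil markers, S100a8 and S100a9 were lower by the choice of the 84. The rule's limits on Cd79a, C1q, Epcam and Cdh1 UMIs also selected against B cells, macrophages and epithelium. None of the mesenchyme, epithelium, neutrophil and B cell markers was higher (0), and 1 macrophage marker was. Type 2 innate lymphoid markers, of which Gata3 also belongs to a T cell list, were higher in 3 of 5, dendritic cell markers in 2 of 7, endothelial in 1 of 5 and erythroid in 1 of 4, with 0 lower in these lists, and the 2 measured mast cell and basophil markers lay within 2-fold. The type 2 innate lymphoid markers gave 331 CPM in 40 of the 84, against 37.3 CPM in the other kept barcodes. Of their 74 UMIs in the 84, Rora gave 57 and Gata3 12. Rora was in 33 barcodes, 13 of them with Cd8, so these UMIs are not read as type 2 innate lymphoid cells. Erythroid markers gave 1801 CPM in 80 of the 84, against 994 CPM in the other kept barcodes and 95297 CPM in the droplets of 1 to 20 UMIs, and their part in the results was not tested.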

How the data were processed

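The deposited values are UMI counts per gene and barcode in 1 unfiltered matrix of 31053 genes, with software version 3.0.2 and format version 2 per the file headers. Build mm10, R 3.4.1 and Seurat are named in the submitters' processing notes, while no source used here names an aligner or the annotation. No sample column was left unused (0), and no barcodes of the rule were identical (0).

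The rule was applied in Python 3.11.15 with numpy 2.4.6, scipy 1.17.1, pandas 2.3.3 and scanpy 1.11.5. Of 5336 barcodes with at least 500 genes, 561 were removed for mitochondrial UMIs (13 genes) and 232 for haemoglobin UMIs (8 genes). The Cd3 condition left 129, the Cd79a condition 128, and the C1q and epithelial conditions 126. Doublets were not removed. Scrublet (expected share 5%) gave scores, and a threshold of 0.15 was used in an alternative.

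Counts were summed per group and scaled to CPM, with exact Poisson intervals and exact conditional binomial intervals for ratios, all at 95%. Genes entered a comparison from 30 UMIs in both groups together (10 within the 84), and a 2-fold ratio made a gene higher or lower. With 0 UMIs on a side the ratio was bounded by 3 counts over the group. Levels of different genes are not compared, since 3′ counting efficiency differs between genes. Shares of barcodes were also given after thinning to 1000 UMIs, where no barcode of the 84 was left out (0). Cytotoxic barcodes had at least 2 UMIs of NK receptors and B cell barcodes at least 2 of Cd79a. Macrophage barcodes had at least 10 of C1qa, C1qb and C1qc together. All of these barcodes were chosen without a Cd3 UMI. The ratio calculation was tested on simulated data. The gene identifiers matched GENCODE M21 in 30934 cases, and all 3 promoters were found in the RefSeq table.

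The members and the 29 lists (335 genes, 10 of the lists for markers of other cell types) were chosen with earlier results of these data known. Per list and comparison, the 2 to 4 genes with the most UMIs or the largest ratio were eligible to be named, with the genes of the rule, the 5 markers, up to 10 leading genes (at least 30 UMIs, 25% of barcodes, 5 CPM added) and Foxp3, Cd4, Cd8a, Cd8b1, Trdc, Il17a, Ifng, Tnfsf11 and Mki67. Genes named beyond these, such as Cd28 and Ccr7 in several comparisons, were chosen after their values were seen. The split by S100a8 and S100a9, the limit of 5 Cd74 UMIs for cytotoxic barcodes and the cycling count were chosen after the data were seen. The values of some listed genes are not reported here.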

Additional observations from a re-analysis of the deposited data

Results flagged for a closer look

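Below the limit of 500 genes, 9 of 2650 barcodes with at least 200 and under 500 detected genes had at least 2 Cd3 UMIs and at most 10 S100a8 and S100a9 UMIs, in data that no comparison used. Of these 9, 4 had a receptor constant UMI, with 12 such UMIs in all, at a median of 794 UMIs a barcode.

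Variable segments of the receptor were also outside every comparison. Of 176 segment genes, 15 had a UMI in the 84 T-cell-like barcodes, 19 UMIs in 16 barcodes. The 30 Cd8 barcodes held 8 of these UMIs, the 14 gamma-delta barcodes 5 and the 40 remaining barcodes 6. All 3 Trdv4 UMIs were in the gamma-delta barcodes, and Trgv2 had 2 UMIs there and 1 in the Cd8 set.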

How the results depend on the processing

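The limits are 1 sample without replicates, a median of 2247.5 UMIs in the 84 barcodes, and counts of T cells that fall under stricter mitochondrial and gene limits. Of 180 recomputed counts and shares, 121 stayed close to their value and 59 moved. For log2 ratios, 1415 of 2064 recomputed for the 126 barcodes stayed close to their value and 14 changed sign. Within the 84, it was 1431 of 1583 (9 changed sign) for the Cd8 set and 1267 of 1445 (7 changed sign) for the gamma-delta set. No paired analysis was possible because the matrix is 1 pooled sample and no barcode carries a lane. The cause of the changes below was not tested, except that fewer barcodes or a lower UMI minimum change the counts by construction. The alternatives with S100a8 and S100a9, with the leading barcode of a gene left out, and for the 84 barcodes were chosen after seeing the data.

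With at least 1000 genes there were 46 T cells (1.30% of kept barcodes), 142 genes higher than in cytotoxic barcodes and 243 higher and 480 lower than in B cells. The receptor chains were then alpha-beta alone 23, gamma-delta alone 0, both 7 and none 16. The coreceptors were Cd4 2, Cd8 12 and none 32. With a mitochondrial limit of 10% there were 62 T cells (1.86%), with 268 genes higher and 519 lower than in B cells. Chains were alpha-beta alone 28, gamma-delta alone 1, both 6 and none 27, and coreceptors Cd4 3, Cd8 6 and none 53. With at least 3 Cd3 UMIs the share was 1.94%, with gamma-delta alone 1, no chain 21 and no coreceptor 54. With 1 Cd3 and 1 receptor UMI the share was 1.92%, with 259 genes lower than in cytotoxic barcodes and 524 lower than in B cells. Gamma-delta alone was then 1, no chain 0 and no coreceptor 52. Without any B cell UMI, Cd4 was in 3. With few S100a8 and S100a9 UMIs the share was 1.85%, with 2698 genes lower than in other kept barcodes, 150 higher and 261 lower than in cytotoxic barcodes, 536 lower than in B cells, no chain in 4 and no coreceptor in 47.

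With totals that leave out genes above 1%, 260 genes were lower than in cytotoxic barcodes and 575 lower than in B cells. With a minimum of 10 UMIs, 606 and 1372 genes were higher and lower than in cytotoxic barcodes and 918 and 2163 against B cells. With a minimum of 1 UMI these were 1054, 2723, 1469 and 3118. For the 84 barcodes the same 4 counts were 448, 567, 817 and 1409 at 10 UMIs and 1039, 1732, 1876 and 1823 at 1 UMI.

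Signs changed against other kept barcodes for Camp (-2.39 with 1 Cd3 and 1 receptor UMI, -4.77 with few S100a8 and S100a9 UMIs), Fcgr3 (-0.70 and -1.42), Ltf (-1.96 and -1.21), Lyz2 (-1.50 and -4.18) and S100a8 (-0.0024 and -6.87). Under few S100a8 and S100a9 UMIs they also changed for Ngp (-4.77) and S100a9 (-6.89), where S100a8 and S100a9 made the choice. Ccr9 was at -0.030 with barcodes weighted equally and Cd74 at 0.036 with the 10% mitochondrial limit. In the Cd8 set, Ccl4 was at -2.49 and S1pr1 at -0.59 with that limit, Ccl4 at -0.81 with 1 Cd3 and 1 receptor UMI, and Fosb at 0.072 with 1000 genes. Without the barcode richest in the gene, Gbp2 was at 0.028, Pclaf at -0.0012 and Sparc at 1.40. Sparc was at 1.40 also without Scrublet calls and at 0.48 with equal weights. In the gamma-delta set, Il18rap (0.14), Ly6c2 (0.34) and Runx3 (0.24) changed sign with the 10% limit, Ccl4 (2.34) with 1 Cd3 and 1 receptor UMI and Tubb5 (-1.94) with 3 Cd3 UMIs. Without the richest barcode, Ccr2 was at -0.0013 and Hba-a1 at -0.24.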
